A study of Saccharomyces cerevisiae with 68 samples.

Results

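Recovery of the budding yeast strain RM11-1a after a shift from 25C to 37C was followed on 8 two-colour microarrays, which cover 30, 45, 60 and 120 min at 37C in 2 series. They were chosen by their labels, strain RM11-1a at these times, and they are 8 of the 68 arrays of the study, which follows 5 strains of Saccharomyces cerevisiae through the same heat shock. RM11-1a is a haploid derived from a vineyard isolate. The laboratory strain DBY8268 has the S288c background, the other strains compared are K9, M22 and YPS163, and the labels give no genotype or mating type for any of them. All cultures grew exponentially in YPD, a rich medium, at 25C, and prewarmed medium was added to bring them to 37C, at which they stayed. On each of 60 arrays the heated RNA of a strain was hybridised together with RNA of the same strain at 25C, so every value below is a log2 ratio of heated over unheated cells and a value of 1 is a 2-fold higher level. The other 8 arrays compare K9, M22, RM11-1a or YPS163 with DBY8268 at 25C, 2 of them for RM11-1a. The study thus asks how far, and how long, each strain's RNA levels leave their 25C values.

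A heat shock in yeast switches on chaperone genes through the transcription factor Hsf1 and a wide set of stress genes through Msn2 and Msn4, while genes for ribosome assembly, ribosomal proteins and translation are turned down. When the new temperature is tolerable, most of this response is transient: RNA levels move back within the first hour and settle at a new steady state. Genes that stay away from their 25C level, pass it in the other direction, or begin to move only during recovery describe that new state, and they are the subject here.

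Each strain and time had n = 2, and the number of arrays limited the precision. The series 2 array of YPS163 at 60 min is labelled a technical repeat, and without it 72 genes in place of 89 differed from the other strains at 60 min. The RM11-1a recovery arrays gave values for 5020 to 6090 of 6297 reading frames, and the 4360 genes that had a value at every time in every strain (30 groups, 1 array or more) were tested. LEU2 and URA3, which are deleted in laboratory stocks of RM11-1a, were low against DBY8268 at 25C, with a log2 value of −5.57 for LEU2 and −6.43 for URA3 on the 1 array that measured each, and ASP3-1, an asparaginase gene copy of S288c, gave −6.8 and −6.1. Whether the series come from separate cultures is not given by the labels. The p-values therefore reflect only array-to-array spread, which may be technical. In RM11-1a series and dye were the same split: the heated RNA was in channel 2 throughout series 1 and in channel 1 throughout series 2, and each series shares a 25C reference, except that the label of the 30 min array of series 2 names another reference. The labels of M22 series 2 at 30 and 45 min do so too, and these are the 3 arrays of another reference label below. The 4 times of a series therefore share a denominator and are not independent.

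The profiles of the 2 RM11-1a series correlated less during recovery than before it. Across genes, which are not independent replicates, their correlation was 0.792 at 15 min and then 0.685, 0.349, 0.293 and 0.38 at 30, 45, 60 and 120 min. Over the same 4 times it ranged from 0.593 to 0.822 in DBY8268, from 0.649 to 0.843 in K9, from 0.842 to 0.868 in M22 and from 0.441 to 0.64 in YPS163. A correlation also falls as the profile flattens, and its SD over genes in RM11-1a fell from 1.12 at 15 min to 0.528 at 60 min. The median absolute difference between the series was 0.33 at 5 min, 0.35 at 15 min and then 0.31, 0.39, 0.44 and 0.37, with 0.39 in YPS163 at 120 min. In RM11-1a 31 of 3422 genes measured on all 8 arrays (0.906%) were over 2-fold apart between the series, in the same direction, at all 4 times, beside 0.175% in DBY8268, 0.362% in K9, 0.0% in M22 and 0.791% in YPS163. The widest was HAC1, the transcription factor of the unfolded protein response, which was higher in series 1 by 4.77 on average (log2) and was picked out after its values were seen. Ribosome assembly genes were higher in series 1 by a median of 0.64, and amino acid synthesis genes were lower by 0.31. For this reason both series are given for the genes described, with the calls that were lost without 1 of them. Of 205 tested values of named genes that passed the threshold, 76 still passed without either RM11-1a series, 92 were lost without series 1, 70 without series 2 and 33 without either one, and 100 were lost with the prefix of the array code, whose meaning the labels do not state, as a covariate.

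**Figure D1:**
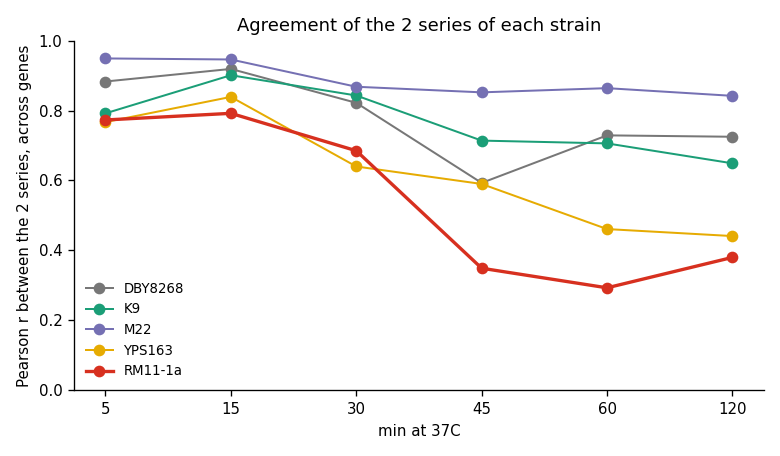
Pearson correlation between the 2 series of each strain across genes (y axis, no unit) at each time in min at 37C (x axis, times evenly spaced and not to scale). RM11-1a, in red, drops from 0.792 at 15 min to 0.293 at 60 min and lies below the other 4 strains at 45, 60 and 120 min.

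The early response had subsided in large part by 30 min. At 15 min 2336 genes differed from 25C (limma, Benjamini-Hochberg adjusted p under 0.05), and at 30, 45, 60 and 120 min the number was 1188, 688, 634 and 631. Those at least 2-fold changed numbered 1198 at 15 min and then 386, 195, 180 and 179. At 30 min 723 genes were higher (16.6% of those tested) and 465 lower (10.7%). With each array centred on its median, which moved the median of all genes at 30 min from 0.12 to 0.02, the split was 524 higher of 1091 called. At 45 min 383 were higher (8.78%) and 305 lower (7.0%), at 60 min 301 higher (6.9%) and 333 lower (7.64%), and at 120 min 339 higher (7.78%) and 292 lower (6.7%). Without series 1 the counts at the 4 times were 712, 336, 242 and 240, and without series 2 they were 565, 427, 553 and 413. With the series as a block they were 1611, 1137, 1071 and 1060. With the prefix of the array code as a covariate they were 1164, 10, 618 and 76. Of 3 prefixes 1 is found on RM11-1a arrays alone, both at 15 min, both at 45 min and 1 at 120 min, so at 45 min prefix and time are parted only through the 120 min arrays. Among the levels described below, those of HSP12, GAD1, CTT1, HSP42, HSP60, HSP82, RPS2, DBP2, MIM2, MRH1, NCE103 and DIP5 at 120 min lost their call with the prefix, and those of YGP1, HXK1, HXK2, TFS1, TPS1, HSP104, AHA1, ZRT1 and YEF3 did not. From 15 to 120 min 774 genes moved up (17.8%) and 467 moved down (10.7%), whereas between 30 and 120 min 78 passed the test, 37 up and 41 down. This last count was 37 without series 1, 12 without series 2, 5 with the prefix, 10 with RM11-1a arrays alone on the same genes, 294 with scaled arrays (88 up) and 272 with the series as a block. The same later interval held 223 called genes in DBY8268, 1010 in K9, 856 in M22 and 195 in YPS163. At 30 min the called genes numbered 1488 in DBY8268, 2056 in K9, 2368 in M22 and 1569 in YPS163.

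Genes were sorted by what followed their value at 15 min. A gene was early when it passed the test with at least a 2-fold change at 15 min. It stayed changed when at 120 min it still passed in the same direction at 2-fold or more. It returned when at 120 min it no longer passed, lay within 0.5 of 0 on the log2 scale and had moved since 15 min by the test. It overshot when it passed in the opposite direction at 60 or 120 min. It was late when it was within 0.5 and did not pass at 5 and 15 min, then passed at 2-fold or more at 60 or 120 min and had moved since 15 min by the test. Of 1198 early genes in RM11-1a, 143 stayed changed (11.9%), 609 returned (50.8%), 8 overshot (0.668%) and 443 met none of these rules (a gene could meet more than 1), and 15 further genes were late. With the prefix as a covariate 59 stayed, 194 returned, 2 overshot and none was late. Without series 2 the number that returned was 343, and without series 1 the number that overshot was 1. Of the 466 early genes that were up, 19.3% stayed and 36.5% returned. Of the 732 that were down, 7.24% stayed and 60.0% returned. The shares that stayed in the other strains were 8.77% in DBY8268, 6.37% in K9, 17.2% in M22 and 17.2% in YPS163, and the shares that overshot were 0.759%, 4.43%, 3.09% and 1.83%. These shares depend on how many genes pass in each strain, and the differences between strains were not tested.

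**Figure D2:**
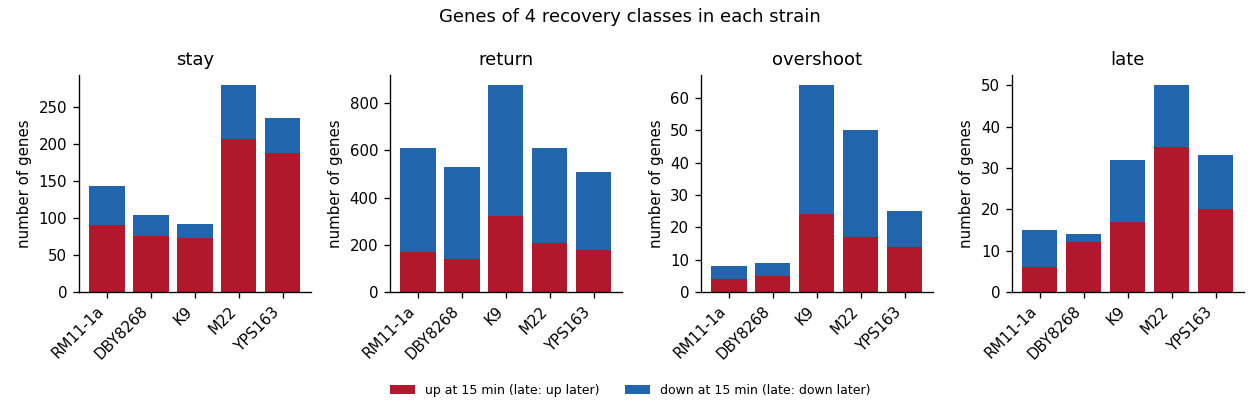
Number of genes (y axis) that stayed changed, returned, overshot or changed late in each strain, split into genes up and down. In RM11-1a 609 genes returned, 143 stayed changed, 8 overshot and 15 were late, and the 64 overshooting genes of K9 are the most of any strain.

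The 90 genes that stayed up in RM11-1a were led by HSP12, YGP1, HXK1, TFS1 and GAD1. The median log2 value of the 90 was 2.43 at 15 min, 1.06 at 60 min and 1.38 at 120 min, beside 0.99, 1.02, 1.76 and 1.16 for the same genes at 120 min in DBY8268, K9, M22 and YPS163. The 90 were chosen by their RM11-1a values at 120 min, which raises the RM11-1a median there. Of these 90, 41 also stayed up in DBY8268 (45.6% of the RM11-1a genes and 54.7% of those of DBY8268), 45 in K9 (50.0% and 61.6%), 71 in M22 (78.9% and 34.5%) and 52 in YPS163 (57.8% and 27.8%). In all 4 other strains 20 stayed up, and 10 stayed up in none of them. At the edge of the rule RCN2 and MLO1 lay just inside at 1.0, and PRB1 lay just outside at 0.99.

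HSP12, a small membrane-associated stress protein, had the highest lasting level. Its values in series 1 and 2 were 7.94 and 8.56 at 15 min, 7.64 and 6.83 at 30 min, 7.18 and 6.32 at 45 min, 6.24 and 4.78 at 60 min, and 6.70 and 5.46 at 120 min (mean 6.08, SE 0.82, adjusted p 4.33e-06). Both RM11-1a values at 120 min were high, one above and one within the range of the other strains, whose arrays ran from −2.39 to 5.59, and the difference from their mean was not called (2.93, SE 0.95, adjusted p 0.0885). YGP1, a secreted glycoprotein made when nutrients run short, was near its early level again at 120 min: it was 4.23 and 4.6 at 15 min, 2.90 and 3.76 at 60 min, and 3.8 and 4.34 at 120 min (4.07, SE 0.35, adjusted p 4.27e-10). The change of YGP1 from 15 to 120 min was −0.34 (SE 0.50, adjusted p 0.659). HXK1, a hexokinase used when glucose is scarce, was 5.14 and 5.07 at 15 min, 3.02 and 2.63 at 60 min and 3.70 and 3.21 at 120 min (3.46, SE 0.43, adjusted p 5.64e-07). HXK2, the hexokinase of glucose-rich growth, went the other way, with −1.55 and −1.6 at 30 min and −1.67 and −1.59 at 120 min (−1.63, SE 0.16, adjusted p 2.8e-09). For HXK2 all arrays of the other strains were closer to 0 at 120 min, between −0.71 and 0.74, and the difference from their mean was −1.39 (SE 0.18, adjusted p 6.32e-06). It passed in every alternative run, and HXK2 did not differ between RM11-1a and DBY8268 at 25C (0.08, adjusted p 0.788).

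Several of these genes dipped at 45 or 60 min and were higher again at 120 min, on both arrays. GAD1, glutamate decarboxylase, was 1.17 and 1.82 at 45 min, 1.82 and 1.90 at 60 min and 3.15 and 2.99 at 120 min (3.07, SE 0.40, adjusted p 2.51e-06). TFS1, an inhibitor of the vacuolar carboxypeptidase Y, was 1.84 and 2.73 at 60 min and 2.71 and 3.72 at 120 min (3.22, SE 0.29, adjusted p 9.31e-10). TPS1, the trehalose-6-phosphate synthase, was 3.65 and 3.85 at 15 min, 0.44 and 0.71 at 60 min and 1.75 and 1.53 at 120 min (1.64, SE 0.24, adjusted p 7.96e-06). CTT1, the cytosolic catalase, was 5.08 and 5.86 at 15 min, 0.90 and 1.69 at 60 min and 2.58 and 2.95 at 120 min (2.76, SE 0.41, adjusted p 3.57e-05). The 60 min arrays carry another array code prefix than the 120 min arrays, and the change between 60 and 120 min was not tested.

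**Figure D3:**
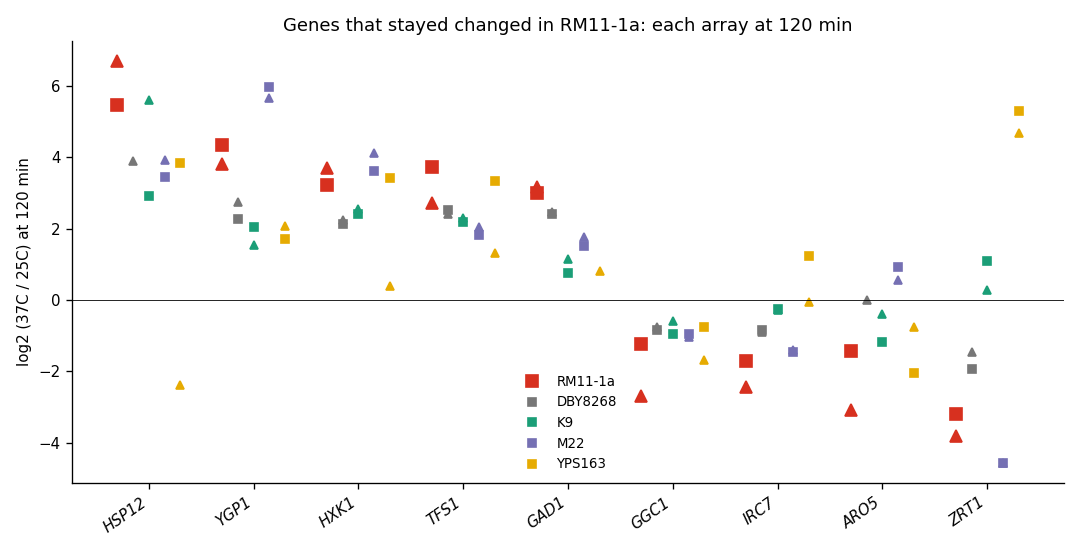
Log2 ratio to 25C at 120 min (y axis) on every array for 9 genes that stayed changed in RM11-1a (x axis), the 5 highest and 4 of the lowest. Series 1 is drawn as triangles and series 2 as squares, with RM11-1a larger and in red and the other strains in other colours. The RM11-1a values of HSP12 are 6.70 and 5.46, and those of ZRT1, −3.82 and −3.20, lie between the −4.57 of M22 and the 5.28 of YPS163.

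The 53 genes that stayed down shared less with the other strains, in which fewer genes stayed down than up. Those that stayed down numbered 29 in DBY8268, 19 in K9, 73 in M22 and 48 in YPS163. Those that stayed up numbered 75, 73, 206 and 187, and the overlap depends on these sizes. The median of the 53 was −1.82 at 15 min and −1.24 at 120 min in RM11-1a. At 120 min the same genes stood at −0.70 in DBY8268, −0.52 in K9, −0.85 in M22 and −0.53 in YPS163. The genes were chosen by their RM11-1a values at 120 min, so a more extreme median in RM11-1a is built into the rule. Of the 53, 9 stayed down in DBY8268 (17.0% of the RM11-1a genes and 31.0% of those of DBY8268), 4 in K9 (7.55% and 21.1%), 12 in M22 (22.6% and 16.4%) and 9 in YPS163 (17.0% and 18.8%), none did so in all 4, and 32 stayed down in none of the 4. RPP0 and RPL1B lay just inside the rule at −1.0, and RPL16B and BIO2 just outside at −0.98. The direct 25C arrays moved with this group. At 25C, where 411 of 5306 genes were higher in RM11-1a than in DBY8268 (7.75%) and 353 lower (6.65%), 15 of the 49 measured genes that stayed down were higher in RM11-1a and 3 lower, with a median of 0.48. The genes that stayed up gave 10 higher and 13 lower of 84, with a median of −0.02. The 25C level is also the denominator of the heat ratios, so these values are not independent, and its part in the strain differences was not tested.

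ZRT1, the high-affinity zinc transporter, was the lowest of these. It was −2.98 and −2.85 at 15 min, −2.59 and −2.96 at 30 min, −3.00 and −3.11 at 45 min, −3.47 and −3.19 at 60 min and −3.82 and −3.20 at 120 min (−3.51, SE 0.23, adjusted p 1.71e-12). The strains parted widely in this gene: at 120 min it was −1.45 and −1.92 in DBY8268, 0.27 and 1.10 in K9, −4.57 and −4.56 in M22, and 4.68 and 5.28 in YPS163. RM11-1a was thus inside the range of the others, and its difference from their mean, −3.38 (SE 0.26, adjusted p 1.85e-10), is taken against a mean that holds the high values of YPS163. The change of ZRT1 from 15 to 120 min fell below that of the other strains by 2.52 (SE 0.37, adjusted p 0.00054), a call that was lost without YPS163, without series 1 and with the array code prefix. In the genes that follow, series 1 was the lower. ARO5 was −3.09 and −1.44 at 120 min (−2.26, SE 0.39, adjusted p 8.66e-05, lost without series 1), IRC7, a cysteine-cleaving lyase, −2.44 and −1.71 (−2.08, SE 0.31, adjusted p 7.79e-06), and GGC1, the mitochondrial GTP and GDP carrier, −2.68 and −1.22 (−1.95, SE 0.29, adjusted p 7.96e-06). Of these genes ARO5 was higher in RM11-1a than in DBY8268 at 25C by 3.77 and 2.36 on the 2 direct arrays (mean 3.06, adjusted p 0.00254) and GGC1 by 2.31 and 0.95 (mean 1.63, adjusted p 0.018). Set on the 25C level of DBY8268, ARO5 in RM11-1a stood at 3.06 before the shift and at 0.80 after 120 min, beside −0.05 for DBY8268 after 120 min.

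The heat shock proteins proper came down steeply and to different floors. HSP104, the disaggregase that pulls proteins out of aggregates, was 6.55 and 6.01 at 15 min, 3.53 and 1.91 at 30 min and then level, with 2.28 and 1.81 at 45 min, 2.29 and 2.06 at 60 min and 2.50 and 2.03 at 120 min (2.26, SE 0.19, adjusted p 2.76e-10). HSP104 was lower than in DBY8268 at 25C by −1.01 and −1.72 (mean −1.36, adjusted p 0.00401), and on the 25C scale of DBY8268 it stood at 0.90 after 120 min in RM11-1a, beside 1.5 in DBY8268. At 30 min HSP104 was lower than in the other strains by the test (−0.89, SE 0.22, adjusted p 0.00812), but this rests on series 2, and it turned to 0.10 when the arrays of each time were scaled to one spread. SSA4, the strictly heat-induced cytosolic Hsp70, was 7.46 and 7.49 at 15 min, 5.34 and 5.45 at 30 min, 2.06 and 2.14 at 45 min, 1.17 and 1.88 at 60 min, and 0.80 and 0.85 at 120 min, no longer called (0.82, SE 0.42, adjusted p 0.206). From 15 to 120 min SSA4 fell by 6.65 (adjusted p 5.55e-10). HSP42, a small heat shock protein, was 2.66 and 1.58 at 120 min (2.12, SE 0.36, adjusted p 0.000106, lost without series 1). HSP26, another small heat shock protein, had too few values in other groups to be tested and read 6.70 and 8.57 at 15 min and 2.58 and 2.85 at 120 min. BTN2, which sorts misfolded proteins, had already dropped from 5.15 and 5.17 at 15 min to 0.97 and 0.75 at 30 min. AHA1, the activator of the Hsp90 ATPase, came down slowly from 3.58 and 3.48 at 15 min through 2.80 and 2.76 at 30 min to 1.69 and 1.81 at 120 min (1.75, SE 0.22, adjusted p 5.64e-07). HSP82, the heat-induced Hsp90, ended at 0.84 and 0.66 (0.75, SE 0.25, adjusted p 0.0398), a call lost without either series, and SSA1, an Hsp70 made also in unstressed cells, at 0.19 and 0.18 (adjusted p 0.774). SSA1 and SSA2 are near-identical and may share signal on the array.

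Over the whole list of cytosolic chaperones, 18 of 25 genes were tested and their median was 0.98, 1.06, 0.94 and 0.74 at 30, 45, 60 and 120 min, beside 0.12, 0.07, 0.04 and 0.02 for all genes. Of all genes 16.6%, 8.78%, 6.9% and 7.78% were higher than at 25C and 10.7%, 7.0%, 7.64% and 6.7% lower. Of the cytosolic chaperones 13, 10, 9 and 7 were called higher, and none was lower. Against the other strains 2 were lower at 30 min and none was called at later times, while the scaled arrays gave 2 higher at 30 min in place of 2 lower. Of 9 mitochondrial chaperone genes 5 were higher at 30 min and 3 at 120 min, where they were HSP10 (1.63 and 1.6), the folding chamber's lid, HSP78 (1.97 and 1.51), the mitochondrial disaggregase, and HSP60 (0.90 and 1.41, a call lost without series 2), the folding chamber. The general stress list, of which 16 of 29 genes were tested, was the highest of all lists at 120 min, with a median of 2.40, 1.57, 1.74 and 2.47 at the 4 times and 15, 11, 13 and 12 genes called higher. At 30 min this median lay below those of DBY8268, K9, M22 and YPS163 (3.02, 3.86, 3.92 and 2.85). Of the 16 genes 4 were then lower than in the others, beside 4.08% of all genes. The median difference of −0.81 shrank to −0.12 with scaled arrays. At 120 min the median lay above theirs (1.52, 1.58, 2.06 and 1.52), with 1 gene called higher than in the others, beside 0.94% of all genes. GRE3, an aldose reductase, was 3.52 and 3.60 at 30 min, 2.02 and 1.87 at 60 min and 2.41 and 2.30 at 120 min. Antioxidant genes gave 14, 8, 7 and 9 higher and 2, 2, 3 and 3 lower of 26 tested, and PRX1, the mitochondrial peroxiredoxin, was 1.88 and 1.98 at 120 min. The antioxidant genes called lower were 7.69%, 7.69%, 11.5% and 11.5%, beside 10.7%, 7.0%, 7.64% and 6.7% of all genes. Of 9 tested trehalose and glycogen genes 7, 4, 2 and 5 were higher and 1 was lower at each time.

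**Figure D4:**
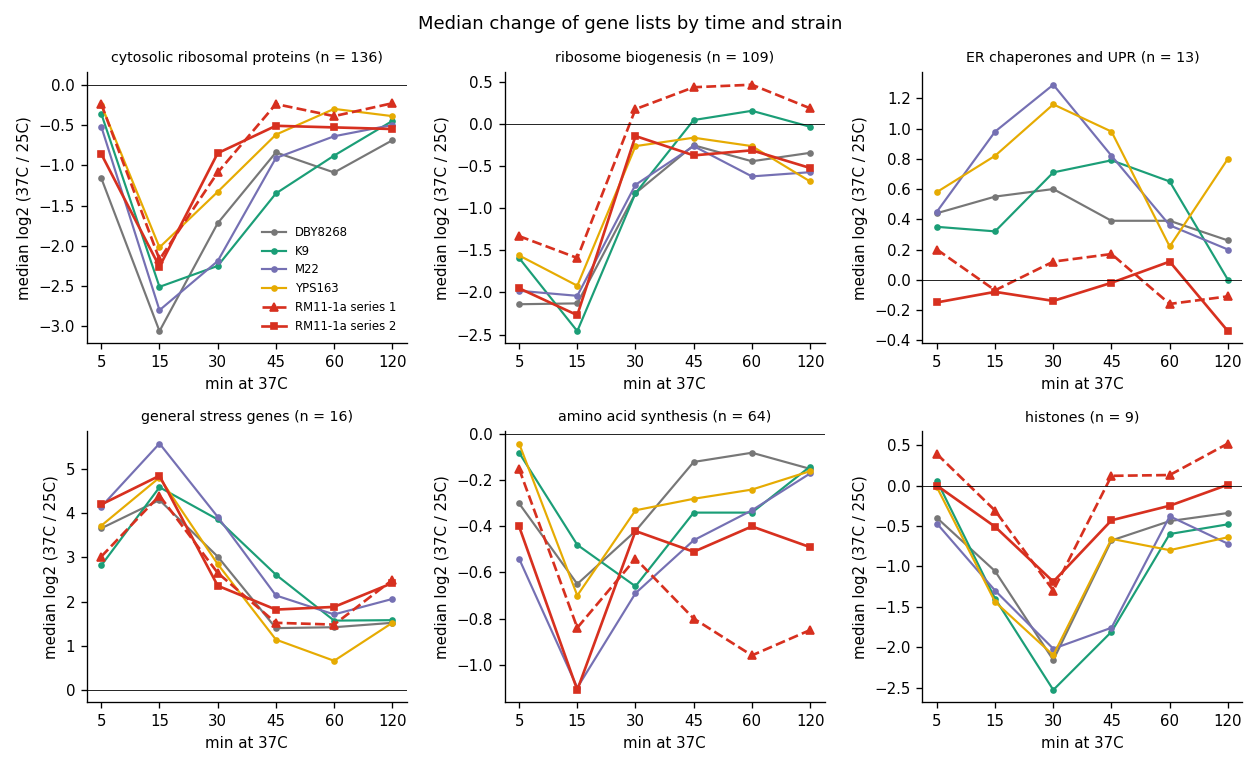
Median log2 ratio to 25C (y axis) of 6 gene lists against min at 37C (x axis, times evenly spaced and not to scale), for each strain as a line of means and for RM11-1a series 1 (triangles, dashed) and series 2 (squares, solid). At 30 min the RM11-1a median of the ribosomal protein genes is −0.96 and that of the ribosome assembly genes −0.05, and the 2 RM11-1a series part in the ribosome assembly panel.

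Of the 609 genes that returned, 439 had been down and 170 up. The median of the former was −1.80 at 15 min and −0.24 at 30 min in RM11-1a, when it was −0.93 in DBY8268, −0.95 in K9, −0.82 in M22 and −0.30 in YPS163. These genes were chosen by their return in RM11-1a, and the times of a series are not independent. The set therefore favours RM11-1a at 30 min. RPA135, the second largest subunit of RNA polymerase I, which makes ribosomal RNA, shows the course: −3.50 and −3.37 at 15 min, −0.20 and −0.18 at 30 min, 0.00 and −0.24 at 45 min and −0.49 and −0.49 at 120 min. At 30 min RPA135 was higher in RM11-1a than the mean of the others by 0.96 (SE 0.19, adjusted p 0.00188), with only YPS163, at −0.15 and −0.16, at the same level, and the call was lost without series 2 and without the arrays of another reference label. RMT2, which methylates a ribosomal protein, was −3.13 and −3.38 at 15 min and −0.38 and −0.14 at 30 min. NOP7, a ribosome assembly factor, returned unequally in the series, from −3.18 and −3.67 at 15 min to 0.26 and −0.65 at 30 min and 0.23 and −1.13 at 120 min. MTD1, of folate one-carbon metabolism, came back last: −2.02 and −2.53 at 60 min and −0.06 and −0.21 at 120 min. Of genes that had been up, ARO9, an aromatic aminotransferase, went from 4.29 and 3.51 at 15 min to −1.74 and −1.48 at 60 min and −0.92 and 0.35 at 120 min, a change since 15 min that was not called without series 1. CHA1, the serine and threonine deaminase, went from 2.61 and 4.31 at 15 min to −0.45 and 0.07 at 120 min. MDJ1, a mitochondrial Hsp40, went from 3.42 and 2.95 at 15 min to 1.0 and 0.01 at 30 min. UBI4, the polyubiquitin gene, counted as returned at −0.35 on both arrays at 120 min, but in between series 1 read −0.27, −0.49 and −0.67 at 30, 45 and 60 min and series 2 read 2.88, 1.95 and 1.68, and its change since 15 min was not called without series 2.

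Cytosolic ribosomal protein genes, 136 of 138 tested, had a median of −0.96, −0.38, −0.46 and −0.39 at the 4 times, with 113, 16, 26 and 18 called lower. These are 83.1%, 11.8%, 19.1% and 13.2%, beside 10.7%, 7.0%, 7.64% and 6.7% of all genes. At 30 min the same median was −1.72 in DBY8268, −2.25 in K9, −2.19 in M22 and −1.33 in YPS163. Of the 136, 77 were called higher in RM11-1a than the mean of the others at 30 min, where 254 of all genes were (5.83%) and 178 were lower (4.08%). The count was 62 without series 1, 0 without series 2, 0 without the 3 arrays of another reference label, 4 with scaled arrays and 125 with the series as a block. The median difference kept its sign in each of these, between 0.52 and 1.19. No ribosomal protein gene was called different from the other strains at 45, 60 or 120 min, while the block fit called 40, 6 and 1 higher. RPL3, an early-assembling protein of the large subunit, was −1.97 and −2.10 at 15 min, −1.22 and −0.57 at 30 min and −0.65 and −0.24 at 120 min, where it was no longer called (−0.44, SE 0.27, adjusted p 0.307). RPS2, of the small subunit, remained down at −1.22 and −0.89 (−1.06, SE 0.25, adjusted p 0.00301, lost without series 1). Many ribosomal protein genes are near-identical pairs that an array may not separate.

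Ribosome assembly genes, 109 of 115 tested, stood at −1.94 at 15 min and at −0.05, 0.10, 0.09 and −0.16 in recovery, with at most 5 called in either direction. At 30 min the others stood at −0.82 (DBY8268), −0.82 (K9), −0.72 (M22) and −0.26 (YPS163), and 19 genes were higher in RM11-1a, but 6 without series 1, 6 without series 2, 1 without the 3 arrays of another reference label and 54 with the block. Of all genes 5.83% were higher than in the others at 30 min. PWP2, of the small-subunit processome, was −2.20 and −2.49 at 15 min and 0.34 and 0.57 at 30 min, 1.01 above the others (SE 0.18, adjusted p 0.000708), and UTP20 of the same complex was 0.00 and 0.06 at 30 min and 1.23 above them (SE 0.25, adjusted p 0.00206). DBP2, an RNA helicase, was low through recovery, and less so than in the other strains at 30 and 45 min. It was −2.41 and −3.83 at 15 min, −1.21 and −1.53 at 30 min, −1.04 and −0.67 at 45 min and −1.04 and −1.65 at 120 min. The other strains' arrays of DBP2 lay between −4.13 and −1.75 at 30 min and between −3.77 and −1.06 at 45 min, below both RM11-1a values each time, and the differences were 1.70 (SE 0.31, adjusted p 0.000708) and 1.65 (SE 0.31, adjusted p 0.00141). By 60 min the difference was 0.74 and was not called (adjusted p 0.247). At 25C DBP2 was lower in RM11-1a than in DBY8268, with −1.02 and −0.68 (mean −0.85, adjusted p 0.0132). On the 25C scale of DBY8268, DBP2 stood at −2.19 after 120 min in RM11-1a, beside −1.79 in DBY8268. The PWP2 and UTP20 calls were lost without the 3 arrays of another reference label, and those of DBP2 at 45 min and of its level at 120 min without series 2. Translation factors had a median of −1.32 at 15 min, with 32 of 36 tested lower, and of −0.41, −0.39, −0.39 and −0.48 in recovery, with 14, 12, 14 and 16 lower. Those are 38.9%, 33.3%, 38.9% and 44.4%, beside 10.7%, 7.0%, 7.64% and 6.7% of all genes. YEF3, an elongation factor of fungi, read −1.38 and −1.26 at 30 min and −1.24 and −1.04 at 120 min (−1.14, SE 0.16, adjusted p 2.22e-06). Proteasome genes gave the opposite order: 24 of 36 were higher at 30 min, then 1, 1 and 2. From 45 min on their shares, 2.78%, 2.78% and 5.56%, lay below the 8.78%, 6.9% and 7.78% of all genes.

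Genes that overshot were few and their opposite phase was small. Of the 4 that passed from up to down, NCE103, the carbonic anhydrase, was the steadiest: 2.34 and 2.27 at 15 min, −0.77 and −0.55 at 30 min, −0.84 and −0.85 at 45 min, −0.80 and −0.62 at 60 min and −0.93 and −0.55 at 120 min (−0.74, SE 0.23, adjusted p 0.0271). NCE103 differed from the mean of the others at 120 min by −1.25 (adjusted p 0.00643) and was 1.34 higher than in DBY8268 at 25C (adjusted p 0.0135). DIP5, a permease for acidic amino acids, went from 1.49 and 1.54 at 15 min to −0.60 and −1.3 at 120 min (−0.95, SE 0.25, adjusted p 0.00834). ACO1, the mitochondrial aconitase, was −1.34 and −0.47 at 60 min (−0.90, adjusted p 0.0247), and BAT2, the cytosolic branched-chain aminotransferase, −0.86 and −0.53 (−0.70, adjusted p 0.0269). Those that passed from down to up did so at 60 min and in a range of 0.39 to 0.92: TCA17, of a vesicle-tethering complex, at 0.88 and 0.95 (adjusted p 0.0492), YKR045C at 0.31 and 1.26 (adjusted p 0.00866), EFM3, a methyltransferase of an elongation factor, at 1.07 and 0.42 (adjusted p 0.0148), and DBP6, an RNA helicase of ribosome assembly, at 0.58 and 0.20 (adjusted p 0.048). Without series 1, 1 gene overshot, without series 2 there were 13, and with the block 26. Each of the 8 calls in the opposite direction was lost without at least 1 series: those of NCE103, ACO1, EFM3 and DBP6 were lost without series 1, those of DIP5 and YKR045C without series 2 and those of BAT2 and TCA17 without either. The calls of DBP6 and TCA17 were also lost in most other alternatives, 14 of 21 and 13 of 21 in all.

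Of the 15 late genes 6 were higher and 9 lower, and the means of those named here lay at most 1.40 from 25C on the log2 scale. HPA3, an acetyltransferase of D-amino acids, was the least variable: −0.32 and −0.13 at 15 min, 0.13 and 0.34 at 30 min, 0.86 and 0.76 at 45 min, 0.93 and 1.11 at 60 min (1.02, SE 0.14, adjusted p 2.92e-06) and 0.91 and 1.13 at 120 min. The arrays of the other strains lay between 0.55 and 1.57 at 60 min, on both sides of RM11-1a. MGT1, a DNA repair methyltransferase, went from 0.37 and 0.44 at 15 min to 1.22 and 1.25 at 60 min (1.24, SE 0.20, adjusted p 6.9e-05). MIM2, of the import machinery of the mitochondrial outer membrane, reached 0.95 and 1.16 at 120 min (1.06, SE 0.19, adjusted p 0.000111), and MRH1, a plasma membrane protein related to Hsp30, 1.25 and 1.06 (1.16, SE 0.28, adjusted p 0.00328). The 25C difference of MRH1, RM11-1a minus DBY8268, was −3.18 (adjusted p 0.000173), and on that scale it stood at −2.03 after 120 min, beside −0.10 in DBY8268. Downwards, GSH1, the first enzyme of glutathione synthesis, was −0.16 and −0.46 at 15 min, −1.37 and −1.04 at 45 min, −1.16 and −1.13 at 60 min (−1.14, SE 0.18, adjusted p 2.29e-05) and −1.01 and −1.04 at 120 min. PDR12, the weak-acid exporter, read −1.22 on both arrays at 60 min (SE 0.23, adjusted p 0.000248), NPL3, an RNA-binding protein of messenger export, −1.3 and −0.96 (−1.13, SE 0.22, adjusted p 0.000421), and MEP1, an ammonium permease, −1.28 and −1.17 (−1.23, SE 0.31, adjusted p 0.0083). MCH4, which resembles monocarboxylate permeases, was −0.21 and 0.46 at 15 min, −1.73 and −0.59 at 60 min and −1.98 and −0.83 at 120 min (−1.40, SE 0.24, adjusted p 8.47e-05). In the other strains MCH4 lay between −0.27 and 1.09 at 120 min, above both RM11-1a values (difference −1.69, SE 0.27, adjusted p 0.000428). The MCH4, MRH1 and NPL3 calls were lost without series 1, and that of MEP1 without either series. Late genes numbered 22 without series 1, 39 without series 2, 7 with scaled arrays and 0 with the array code prefix.

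Set against the mean of the other 4 strains, 432, 121, 89 and 148 genes differed at 30, 45, 60 and 120 min. At 45 min 46 were higher (1.06%) and 75 lower (1.72%), at 60 min 29 higher (0.665%) and 60 lower (1.38%), and at 120 min 41 higher (0.94%) and 107 lower (2.45%). Centring the arrays moved these splits to 327 higher of 495 at 30 min, 63 of 123 at 45 min, 39 of 95 at 60 min and 60 of 134 at 120 min. Both RM11-1a values lay outside the range of all other arrays for 172, 71, 42 and 87 of the called genes. The counts at the 4 times were 256, 95, 53 and 41 without series 1, 96, 69, 236 and 181 without series 2, 37 at 30 min without the 3 arrays of another reference label, 871, 348, 382 and 402 with the block, and 325, 1, 77 and 12 with the array code prefix. At 120 min the prefix left 0 of the 12 amino acid synthesis genes, 0 of the 4 endoplasmic reticulum genes, 1 of the 7 cell wall genes, 0 of the 4 histone genes and 0 of the 5 mitochondrial ribosomal protein genes that are counted below as different from the other strains. Other strains bore on them too: without YPS163 among the others the counts at 30, 45 and 60 min were 833, 223 and 163, without K9 242 at 30 min and 77 at 45 min, without M22 129 at 30 min, and without DBY8268 52 at 60 min.

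Above the other strains at all 4 times was COX2, a subunit of cytochrome c oxidase that is encoded in the mitochondrial genome. In RM11-1a it was 2.37 and 2.56 at 15 min, 1.48 and 1.67 at 30 min, 1.40 and 2.15 at 45 min, 1.65 and 1.69 at 60 min, and 1.47 and 1.3 at 120 min. Every other array was lower at each time, with the highest at −0.01, 0.08, 0.23 and 0.33. The differences were 2.03 (SE 0.43, adjusted p 0.0031), 2.02 (SE 0.44, adjusted p 0.00618), 2.02 (SE 0.43, adjusted p 0.00778) and 1.89 (SE 0.43, adjusted p 0.00858), and each was lost without series 1. The COX2 call at 30 min was also lost without the 3 arrays of another reference label, and those at 45 and 120 min with the array code prefix. COX2 in RM11-1a was 0.97 and 0.77 above DBY8268 at 25C, a difference that was not called (adjusted p 0.328). COX3, another subunit encoded there, was 1.99 and 1.84 at 60 min, 1.78 above the others (SE 0.31, adjusted p 0.00215), and was measured once at 120 min, at 1.68. ATP6 and ATP8, the mitochondrially encoded subunits of the ATP synthase, did not pass against 25C at 60 min, with 0.79 and 1.18 for ATP6 and 0.69 and 0.40 for ATP8, but they exceeded the others, which were mostly below 0, by 2.01 (SE 0.46, adjusted p 0.016) and 1.85 (SE 0.47, adjusted p 0.0284). ATP8 was 1.96 above them at 120 min (SE 0.47, adjusted p 0.0128). The ATP6 call and the ATP8 call at 120 min were lost without series 2, the ATP8 call at 60 min without series 1, all of these without M22, and the ATP8 call at 120 min with the array code prefix. At 25C ATP8 was far lower in RM11-1a than in DBY8268 (−5.09 and −2.85, adjusted p 0.00171), and ATP6 was too (−2.03 and −0.53, adjusted p 0.0423). Over the 9 tested reading frames of the mitochondrial genome, a list drawn up after its values were seen, 4 were higher than in the other strains at 60 min and 4 at 120 min, and the median at 30 min parted by series, −2.27 without series 1 and 0.50 without series 2. Of all genes 0.665% were higher than in the other strains at 60 min and 0.94% at 120 min.

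**Figure D5:**
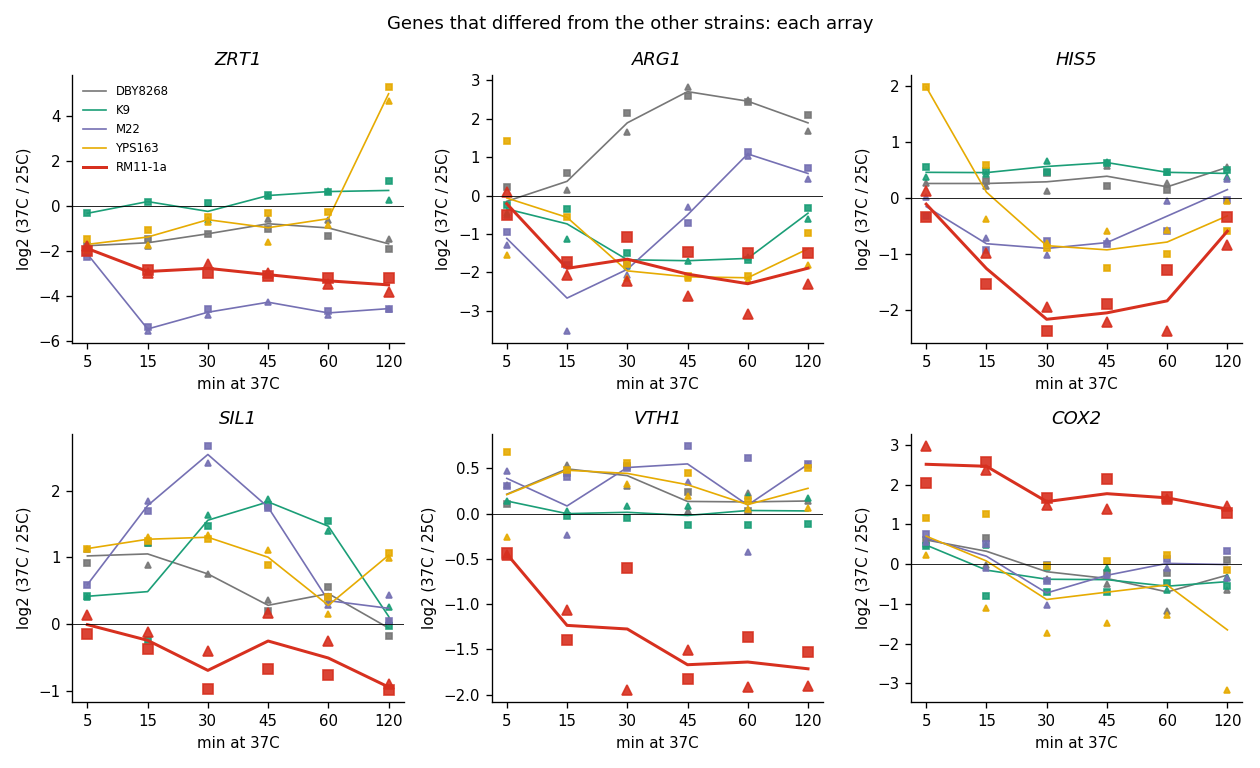
Log2 ratio to 25C (y axis) against min at 37C (x axis, times evenly spaced and not to scale) for ZRT1, ARG1, HIS5, SIL1, VTH1 and COX2 in the 5 strains, with lines through the means and RM11-1a series 1 as triangles and series 2 as squares. The RM11-1a values of COX2 stay between 1.3 and 2.56 from 15 min on and those of VTH1 between −1.95 and −0.60.

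Some nuclear genes were also above the others. OM45, a protein of the mitochondrial outer membrane, was 1.0 and 0.78 at 45 min and 2.57 and 2.42 at 120 min, where the other strains lay between −0.12 and 2.0 (difference 1.48, SE 0.27, adjusted p 0.00216, lost without series 1). ALD4, the mitochondrial aldehyde dehydrogenase, was 3.13 and 2.92 at 120 min (3.02, SE 0.22, adjusted p 4.78e-12) and 1.07 above the mean of the others (adjusted p 0.00896), though inside their range at 0.40 to 3.45. At 25C ALD4 was lower in RM11-1a than in DBY8268, with −0.97 and −0.68 (mean −0.82, adjusted p 0.0434). On the 25C scale of DBY8268, ALD4 stood at 2.2 after 120 min in RM11-1a, beside 2.78 in DBY8268. Of 65 tested mitochondrial ribosomal protein genes 11, 20, 3 and 14 were higher than at 25C (16.9%, 30.8%, 4.62% and 21.5%, beside 16.6%, 8.78%, 6.9% and 7.78% of all genes) and none lower, and 1, 3, 1 and 5 exceeded the other strains, with 0 at each time without series 1. Of all genes 5.83%, 1.06%, 0.665% and 0.94% exceeded the other strains at the 4 times, and at 30 min the 1 of 65 lay below that share. Of 51 tested genes of the TCA cycle and the respiratory chain 6, 0, 0 and 12 were higher than at 25C and 5, 6, 7 and 0 lower. At 30 min these shares, 11.8% higher and 9.8% lower, lay below those of all genes against 25C, and at 120 min 23.5% were higher. The change between 60 and 120 min was not tested, and INH1, ATP18 and ATP15, the members with the smallest p at 120 min, lost their call with the array code prefix. RPN4, the activator of proteasome genes, held at 1.35 and 1.05 at 30 min and 1.26 and 0.55 at 120 min and was above the others at all 4 times, by 1.09, 1.43, 1.32 and 0.96 (adjusted p 0.00384, 0.00032, 0.00215 and 0.019), while of the 36 tested genes of the proteasome list, in which RPN4 is counted, only 1 was higher than the others at each of these times. The ALD4 difference and the RPN4 differences at 30 and 120 min were lost without series 1, and the differences of OM45, ALD4 and RPN4 at 120 min with the array code prefix.

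Below the other strains, endoplasmic reticulum genes came first. SIL1, the nucleotide exchange factor of the Hsp70 of this compartment, was −0.12 and −0.37 at 15 min, −0.41 and −0.98 at 30 min, 0.17 and −0.68 at 45 min, −0.26 and −0.76 at 60 min and −0.90 and −0.99 at 120 min. The arrays of the other strains lay between 0.75 and 2.67 at 30 min, all above RM11-1a, and the difference was −2.20 (SE 0.23, adjusted p 2.17e-07). MPD1, a protein disulfide isomerase, was 0.13 and −0.44 at 30 min where the others lay between 0.86 and 2.62 (difference −1.86, SE 0.21, adjusted p 9.89e-07). KAR2, the Hsp70 itself, had been up at 15 min, with 1.78 and 1.10, and was 0.25 and −0.14 at 30 min where the others lay between 0.59 and 2.27 (difference −1.33, SE 0.20, adjusted p 4.52e-05). ERO1, the oxidase that drives disulfide formation, was 0.67 and 0.11 at 30 min (difference −1.22, SE 0.21, adjusted p 0.00044). Of the 13 tested genes of the list, 7 were lower than in the others at 30 min, and 4, 2 and 4 at the later times, and none was higher. Of all genes 4.08%, 1.72%, 1.38% and 2.45% were lower than in the others at the 4 times. The list median was −0.02 at 30 min in RM11-1a, beside 0.60 in DBY8268, 0.71 in K9, 1.29 in M22 and 1.16 in YPS163, and the count at 30 min was 7 without series 1, 6 without series 2 and 5 without the 3 arrays of another reference label. The 4 at 45 min became 1 without series 2, the 2 at 60 min became 1 without either series, and the 4 at 120 min became 1 without either series and 2 with centred arrays. At 25C some of these genes were above DBY8268, SIL1 by 1.10 (adjusted p 0.00379), KAR2 by 0.78 (adjusted p 0.025) and ERO1 by 0.59 (adjusted p 0.0423). On the 25C scale of DBY8268, SIL1 in RM11-1a went from 1.10 before the shift to 0.15 after 120 min, beside −0.06 in DBY8268 after 120 min. HAC1 itself read 1.95 in series 1 and −0.51 in series 2 at 45 min and was far apart between the series at the other recovery times too, as it was on the direct 25C arrays, with −4.19 and 1.79.

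By number, amino acid synthesis genes were the list with the most members below the other strains at 60 and 120 min. Of 64 tested, 31, 32, 37 and 33 were lower than at 25C at the 4 times, with a median of −0.51, −0.68, −0.72 and −0.64, and at 60 min the same genes stood at −0.08 in DBY8268, −0.34 in K9, −0.33 in M22 and −0.24 in YPS163. Smaller lists held larger shares below the others at 120 min than this list. They were 4 of 13 endoplasmic reticulum genes, 7 of 26 cell wall genes and 2 of 5 mating genes. Of all genes 4.08%, 1.72%, 1.38% and 2.45% were lower than in the others at the 4 times. Of the amino acid synthesis genes 2, 9, 13 and 12 were lower, and 6 were higher at 30 min. These counts lean on series 1, which was the lower in this list: at 60 min they were 2 lower without series 1 and 19 without series 2, and at 120 min 1 and 15. HIS5, of histidine synthesis, was low in both: −0.99 and −1.54 at 15 min, −1.96 and −2.39 at 30 min, −2.22 and −1.90 at 45 min, −2.39 and −1.3 at 60 min and back to −0.85 and −0.34 at 120 min. In the other strains HIS5 lay between −1.03 and 0.66 at 30 min and between −1.01 and 0.46 at 60 min, above RM11-1a, and the differences were −1.94 (SE 0.24, adjusted p 4.38e-06) and −1.72 (SE 0.24, adjusted p 6.85e-05). ARG1, argininosuccinate synthetase, was −2.07 and −1.73 at 15 min, −3.10 and −1.5 at 60 min and −2.30 and −1.49 at 120 min, with a difference from the mean of the others of −2.12 at 120 min (SE 0.38, adjusted p 0.00178), where their arrays ran from −1.80 to 2.10. GCN4, the activator of these pathways, was −1.11 and −0.79 at 120 min, below every other array (−0.55 to 0.48), with a difference of −0.91 (adjusted p 0.00677). At 25C HIS5 was 1.94 (adjusted p 0.00038) and ARG1 2.92 (adjusted p 0.000237) higher in RM11-1a than in DBY8268. On the DBY8268 scale ARG1 stood at 2.92 before the shift and 1.02 after 120 min, against 1.90 in DBY8268 after 120 min, and HIS5 at 1.94 and 1.35, against 0.51. URA2, of pyrimidine synthesis, recovered slowly from −3.8 and −4.21 at 15 min to −2.97 and −2.73 at 30 min and −1.37 and −0.76 at 120 min, and remained below the others (difference −1.04, SE 0.22, adjusted p 0.00654). The differences at 120 min of ARG1, GCN4 and URA2 were lost without series 1, and those of HIS5 passed in every alternative run.

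Further genes lay on one side of every other strain. VTH1, which resembles the vacuolar sorting receptor Vps10 and has the near-identical partner VTH2, was −1.51 and −1.83 at 45 min, −1.92 and −1.36 at 60 min and −1.90 and −1.53 at 120 min. Nothing comparable was seen elsewhere, with arrays between −0.42 and 0.75 over these times, and the differences were −1.95 (SE 0.23, adjusted p 8.04e-06), −1.76 (SE 0.23, adjusted p 4.68e-05) and −2.03 (SE 0.24, adjusted p 3.06e-06). IRC7 was −2.56 and −2.10 at 60 min, below all other arrays (difference −1.86, SE 0.34, adjusted p 0.00215). CSS1 was −0.98 and −2.22 at 120 min (difference −1.73, adjusted p 0.0438, lost without either series). The frames YDR261C-D, at −0.08 and −2.38, and YLR227W-B, at −0.22 and −1.53 at 45 min, differed from the others by −2.32 (adjusted p 0.000266, lost without series 2) and −2.0 (adjusted p 0.000238), and in both the series were far apart. The calls of both frames were lost with the array code prefix, and whether other frames share their signal on the array was not tested. Of all genes 2.45% were lower than the others at 120 min. Of 26 tested cell wall genes 7 were lower than the others at 120 min, 1 without series 1, among them CHS1, a chitin synthase, at −0.83 and −0.38 (difference −1.33, SE 0.23, adjusted p 0.00137) and CRH1, which links chitin to glucan, at −0.60 and −0.46 (difference −1.31, SE 0.28, adjusted p 0.00665). At 25C CHS1 was higher in RM11-1a than in DBY8268 by 1.59 and 0.63 (mean 1.11, adjusted p 0.0138). For CRH1 that 25C difference was 0.64 and was not called (adjusted p 0.103). On the 25C scale of DBY8268, CHS1 stood at 0.51 after 120 min in RM11-1a, beside 0.26 in DBY8268. CRH1 stood at 0.12, beside 0.68. The IRC7, CHS1 and CRH1 differences were lost without series 1, while those of VTH1 at 60 and 120 min passed in every alternative run.

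SCW11, a glucanase-like wall protein of cell separation, was 0.08 and −0.27 at 15 min and 1.26 and 1.5 at 30 min, above all arrays of the others, which lay between −1.43 and 0.56 (difference 1.55, SE 0.27, adjusted p 0.00044). CTS1, the chitinase that frees daughter cells, was 1.49 and 1.82 at 15 min and 0.66 and 1.41 at 45 min (difference at 45 min 1.56, SE 0.22, adjusted p 3.85e-05). DSE4, a glucanase of daughter cells, was 1.33 and 1.45 at 30 min (difference 1.15, SE 0.22, adjusted p 0.00104). The SCW11 call was lost without the 3 arrays of another reference label, and the calls at 45 min of CTS1, and of COX2, DBP2 and VTH1 above, with the array code prefix. These genes were far lower in RM11-1a than in DBY8268 at 25C, SCW11 by −3.61 and −3.65, CTS1 by −3.86 and −4.25 and DSE4 by −2.32 and −3.06. On the DBY8268 scale CTS1 stood at −4.06 before the shift and at −2.92 after 120 min in RM11-1a. In bulk RNA fewer cells of a kind and less RNA per cell cannot be told apart.

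Histone genes were low at 30 min in every strain and less so in RM11-1a. Of 9 tested, 8 were lower than at 25C at 30 min and none from 45 min on, with a median of −1.23, −0.10, −0.03 and 0.25, beside −2.16 in DBY8268, −2.53 in K9, −2.02 in M22 and −2.10 in YPS163 at 30 min. Against the others 4, 7, 0 and 4 were higher, beside 5.83%, 1.06%, 0.665% and 0.94% of all genes. Without series 1 these counts were 1, 1, 0 and 0 and without series 2 they were 2, 4, 1 and 3, and at 30 min the scaled arrays gave 0. HTA2, a copy of histone H2A, was −0.36 and −0.86 at 15 min, −1.39 and −2.22 at 30 min and 0.39 and −0.15 at 120 min, where the other strains lay between −1.19 and −0.44 (difference at 120 min 0.95, SE 0.22, adjusted p 0.00858, lost without series 1). The near-identical copy HTA1 was −1.47 and −0.98 at 30 min and 0.36 and −0.17 at 120 min. Among the remaining lists, purine and one-carbon genes had the most lower calls at 30, 45 and 60 min, with 24, 20, 21 and then 7 lower of 33, ergosterol genes gave 3, 10, 11 and 8 lower of 26, and glycolysis genes 8, 12, 8 and 10 lower and 3, 2, 2 and 2 higher of 26. The 11.5% of ergosterol genes lower at 30 min lay near the 10.7% of all genes. Glycolysis genes called higher were 11.5%, 7.69%, 7.69% and 7.69%, beside 16.6%, 8.78%, 6.9% and 7.78% of all genes. In the remaining lists, to be read against the shares of all genes given above, at most 7 genes were called in either direction at any of the 4 times. Of 20 tested genes of RNA polymerases I and III 1 was called, of 23 methionine and sulfur genes 5, 3, 3 and 3 were higher and 4, 5, 6 and 4 lower, and of 24 genes of DNA replication 3, 1, 1 and 0 were higher and 0, 0, 4 and 1 lower. At 30 min the 12.5% of DNA replication genes called higher lay below the 16.6% of all genes, and the methionine and sulfur genes, with 21.7% higher and 17.4% lower, above both shares. Of 27 metal uptake genes 4, 7, 5 and 3 were lower and 0, 1, 0 and 3 higher, of 13 phosphate genes 3, 3, 4 and 2 were lower and 1, 0, 0 and 0 higher, and of 9 hexose transporters 3, 0, 0 and 1 were lower and 1, 0, 0 and 0 higher. Of 6 vitamin genes 1, 2, 1 and 0 were higher, of 10 seripauperin, DAN and TIR genes 1 was lower at each time and 1, 1, 0 and 0 higher, and of 13 oxygen-regulated genes 2, 2, 2 and 3 were lower and 1, 0, 1 and 2 higher. None of 5 tested mating genes, of 26 in the list, passed against 25C at any of the 4 times by this test. Against the other strains 1, 1, 0 and 2 of these 5 were lower and none was higher. The difference of STE6 at 120 min was −1.17 (SE 0.30, adjusted p 0.0331), a call lost without either series. At 25C STE6 was higher in RM11-1a than in DBY8268 by 5.04 (adjusted p 7.18e-06).

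The change between 15 and 120 min differed from the mean of the others in 12 genes, 2 in the upward direction (0.0459%) and 10 in the downward direction (0.229%), while 351 had an unadjusted p under 0.05. The count was 0 with the array code prefix by limma, 3 without M22, 1 without DBY8268 series 1, 6 and 28 without RM11-1a series 1 and 2, and 86 with the block. DOG2, a sugar phosphatase, was flat in RM11-1a, with −0.16 and 0.09 at 15 min and 0.24 and −0.06 at 120 min. The others had 0.90 to 1.71 at 15 min and −0.18 to 0.42 at 120 min (difference of the changes 1.2, SE 0.27, adjusted p 0.0368, lost without series 1 and in 14 alternatives in all). EGT2, another gene of cell separation, was 0.94 and 0.38 at 15 min and −1.0 and −0.46 at 120 min, a lower change than that of the others (difference −1.98, SE 0.39, adjusted p 0.013). At 120 min both RM11-1a values of EGT2 were below the range of the others, −0.29 to 1.15, but the EGT2 difference was lost without series 1 and without M22. YLL053C differed by −2.53 (SE 0.50, adjusted p 0.013) with values of −0.10 and 1.70 at 15 min and 0.27 and 0.73 at 120 min, so the series were 1 up and 1 flat early on. The YLL053C difference was lost without series 2.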

How the data were processed

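RNA of 5 yeast strains was compared on 68 two-colour arrays, 60 of a heat time course and 8 at 25C. The authors deposited 1 log ratio per array and reading frame, taken here as log2, since no source used here states the log base, the normalization or the centring. A direction of heated over 25C RNA is given per the labels. Of 6297 frames 5841 were matched to a gene symbol of RefSeq R64 and 456 kept the systematic name.

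A linear model with 30 means of strain and time and a term for the dye (716 genes called, median size 0.123) was fitted per gene over all 60 arrays, with limma's moderated variance (limma 3.58.1, R 4.3.3, prior df 5.68, residual df 29 for genes with every value) and Benjamini-Hochberg adjustment over 4360 genes at 0.05. Missing values were left out, not imputed. Comparisons were RM11-1a against its own 25C RNA at each time, between times, and against the mean of the other 4 strains. The 25C arrays were fitted alone over 5306 genes with values on at least 6 of the 8. The procedure was tested on simulated data with independent noise on every array. That test therefore does not cover arrays that share a series or a 25C reference. Tables were made with Python 3.11.15 and pandas 2.3.3.

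Series within a strain share a dye channel and, but for RM11-1a series 2 at 30 min and M22 series 2 at 30 and 45 min, a 25C reference label per the labels, which pairs arrays over times. Deviations of arrays of one series correlated at 0.243 to 0.812 in RM11-1a, 0.0487 to 0.69 in DBY8268, 0.19 to 0.742 in K9, 0.0896 to 0.461 in M22 and 0.307 to 0.669 in YPS163. The fit with the series as a block was an alternative.

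Named genes are a preset set of 14 heat and ribosome genes, the most extreme of each recovery class and of each strain difference with agreeing series, and up to 3 members of each list with the smallest p. The members and lists were chosen with earlier results of these data known. Alternatives changed the centring, scaling, filters, samples, weights, dye term, block, array code prefix, reference label, strains and replicates. One gene that these rules name is not reported here. No sequences were used.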

Additional observations from a re-analysis of the deposited data

Results flagged for a closer look

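The following genes stood apart because the test of the difference between RM11-1a and the other 4 strains' mean was passed, with both RM11-1a arrays outside the range of all other arrays where a single time is compared. Values are log2 differences, RM11-1a minus the others. Their causes were not tested.

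At 30 min the differences were 2.03 for COX2, 1.70 for DBP2 and 1.55 for SCW11, and −2.20 for SIL1, −1.94 for HIS5 and −1.86 for MPD1. At 45 min they were 2.02 for COX2, 1.65 for DBP2 and 1.56 for CTS1, and −2.32 for YDR261C-D, −2.0 for YLR227W-B and −1.95 for VTH1. At 60 min COX2 was again at 2.02, with ATP6 at 2.01 and ATP8 at 1.85, and on the lower side were IRC7 at −1.86, VTH1 at −1.76 and HIS5 at −1.72. At 120 min ATP8 was at 1.96, COX2 at 1.89 and OM45 at 1.48, and VTH1 at −2.03, CSS1 at −1.73 and MCH4 at −1.69.

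In the change from 15 to 120 min DOG2 differed by 1.2, YLL053C by −2.53, ZRT1 by −2.52, EGT2 by −1.98 and URA3 by −1.86. URA3 is deleted in laboratory stocks of RM11-1a, so its value there cannot be read as a level of its RNA. Among these ZRT1 in RM11-1a lay within the range of the other strains at 120 min.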

How the results depend on the processing

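Counts of called genes, out of 4360 unless a filter changed this, are given at 30, 45, 60 and 120 min in that order where 4 numbers stand together. Against 25C, the fit of RM11-1a arrays alone without a filter on other strains gave 714, 247, 215 and 244, and on the same genes 316, 296 and 294 at the last 3 times. Each time fitted alone gave 552, 359 and 415 at 30, 45 and 120 min. With the series as replicate block the counts were 1137, 1071 and 1060 at 45, 60 and 120 min, and with the array code prefix as a covariate 10 at 45 min and 76 at 120 min. Without the 3 arrays of another reference label 508 were called at 30 min. Leaving out 1 series of any strain gave 565 to 1337, 336 to 842, 242 to 781 and 240 to 803.

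Against the other strains each time fitted alone gave 12, 29, 20 and 18, and the replicate block 871, 348, 382 and 402. The prefix covariate gave 1 at 45 min and 12 at 120 min, and 37 were called at 30 min without the 3 arrays. The counts at 30 min were 242 without K9, 129 without M22 and 833 without YPS163, at 45 min 77 without K9 and 223 without YPS163, and at 60 min 52 without DBY8268 and 163 without YPS163. Leaving out 1 series gave 96 to 572, 69 to 194, 41 to 236 and 41 to 242.

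For changes between times, the prefix covariate gave 124 from 15 to 60 min, 786 from 15 to 120 min and 5 from 30 to 120 min, and RM11-1a arrays alone without the filter gave 784 from 15 to 120 min and 1 from 30 to 120 min. From 30 to 120 min the counts were 294 scaled (88 up, against 37 of 78 as reported and 43 of 66 centred), 10 with RM11-1a arrays alone on the same genes, 272 with the replicate block and 22 without the 3 arrays. The 12 differences in the change from 15 to 120 min became 6 for genes with both values, 86 with the block, 3 without M22 and 0 with the prefix by limma, where 351 had an unadjusted p under 0.05 as reported. Leaving out 1 series gave 872 to 1548 (15 to 60 min), 722 to 1370 (15 to 120 min), 12 to 149 (30 to 120 min) and 1 to 35 (difference in change), and at 25C 328 to 461.

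Genes that stayed numbered 59 with the prefix and 365 at 1.5-fold, and those that returned 194 with the prefix. Overshooting genes were 5 scaled, 5 with both values, 4 with RM11-1a arrays alone without the filter and 4 on the same genes, 26 with the block, 2 with the prefix and 22 at 1.5-fold. Late genes were 7 scaled, 9 and 8 with RM11-1a arrays alone, 0 with the prefix and 64 at 1.5-fold. Leaving out 1 series gave 126 to 148 that stayed, 343 to 608 that returned, 1 to 15 that overshot and 10 to 39 that were late. The difference of HSP104 from the others at 30 min turned to 0.10 when scaled. The causes were not tested. With n = 2, series and dye cannot be told apart in RM11-1a, and signal over background is unknown, since only log ratios were used.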
